A study of Rattus norvegicus with 9 samples.

Results

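The mast cell and histamine genes described here were 10 genes followed in rat skin after carrageenan (CGN), a sulphated sugar polymer from red algae with which acute swelling is provoked. They were chosen by name for their known roles, with earlier results of these data known. Each has a symbol in the deposited table that equals 1 of 10 listed symbols. All 10 of 10 were on the array, of 19091 genes in all. Expression was measured on 1-colour arrays in skin of 9 Sprague Dawley rats, 4 of them given CGN and 5 controls left untreated. Per the labels' protocols the CGN dose was 30 mg/kg, paw swelling and pressure pain were scored at 3 hours, and skin was collected at 4 hours. The labels give no age, sex, site or route of CGN, part of the skin taken or vehicle for the controls, so CGN cannot be told apart from the way it was given. Intensities are the authors' RMA values on a linear scale, where RMA corrects background, normalizes arrays and summarises probes into probe sets.

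Mast cells are tissue leukocytes that lie close to vessels and nerves in the skin. They store histamine together with proteases in granules, and release both when IgE bound to its high-affinity receptor is crosslinked by antigen, or on other stimuli. Histamine is made from histidine by a single enzyme, the product of Hdc, and acts through H1 and H2 receptors to widen vessels, make them leak and provoke itch and pain. In mice, Hdc is also known to be inducible in macrophages and neutrophils.

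One of the 10 genes, Hdc, rose after CGN, and 0 fell. In the limma test over all genes 22.2% of them passed at an adjusted p under 0.05, 8.71% higher and 13.5% lower in CGN. The median log2 change was 0.13 over the 10 genes and -0.02 over all genes. The 9 others did not pass, and of these Tpsab1 alone had an unadjusted p under 0.05. Over all genes 6295 of 19091 had an unadjusted p under 0.05, against which such counts below are to be read. In skin as a bulk tissue, fewer cells of a type and less RNA per cell cannot be told apart.

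**Figure D1:**
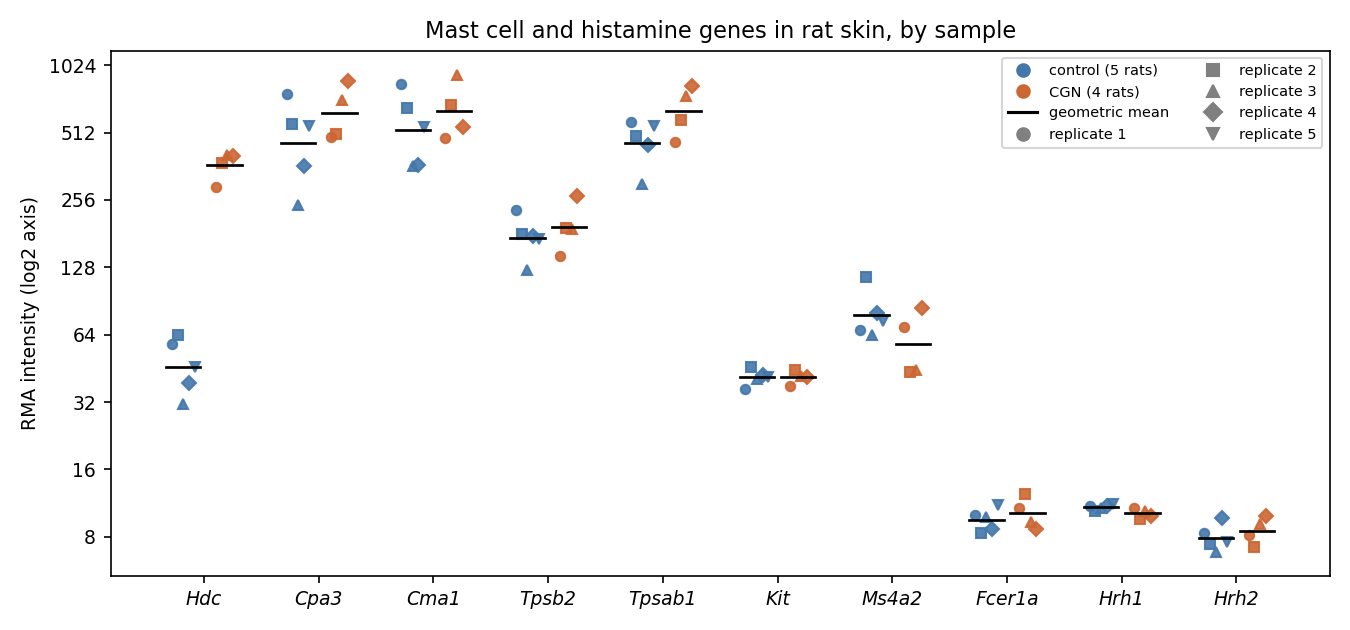
RMA intensity (log2 axis) of the 10 genes in each of 5 control and 4 CGN samples, with 1 marker shape per replicate and a bar at the geometric mean of a group. Hdc is the gene whose CGN samples, at 293.84 to 406.56, all lie above its control samples, at 31.3 to 63.98, and the groups of the other 9 genes overlap.

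The histamine-forming enzyme Hdc was measured by 1 probe set. Its intensity was 58.37, 63.98, 31.3, 38.76 and 46.03 in control replicates 1 to 5. It was 293.84, 374.71, 406.56 and 402.03 in CGN replicates 1 to 4. The groups did not overlap, with the lowest CGN sample 293.84 against the highest control sample 63.98, and 8.44% of all genes likewise had every CGN sample above every control. The geometric mean rose from 46.1 (SD of log2 values 0.42, n = 5) to 366 (SD of log2 values 0.22, n = 4), a 7.94-fold difference. In limma this was a log2 change of 2.99 ± 0.20 (SE; 95% interval 2.54 to 3.43; adjusted p = 3.07e-06), the 91st largest rise of 19091 genes. Hdc was lowest in CGN replicate 1 among CGN samples and in control replicate 3 among controls.

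The letters before the start of Hdc are shown because it is the gene that rose. They are the 250 bases before the gene's start in the RefSeq promoter table of build GRCr8 (chr3:134318705-134318954, minus strand), with matches to any of 7 motifs in capitals. The motifs were searched on both strands. The activator motifs were AP-1, spelt TGANTCA, and a CRE core, spelt TGACG. For the blood cell factors, GATA was spelt AGATAA. The cytokine-driven STAT motif was spelt TTCNNNGAA. Of the general promoter elements, the GC box was spelt GGGCGG. The other general element, the TATA box, was spelt TATAAA. The NF-kB motif was the last. Overlapping matches are both in capitals.
Hdc: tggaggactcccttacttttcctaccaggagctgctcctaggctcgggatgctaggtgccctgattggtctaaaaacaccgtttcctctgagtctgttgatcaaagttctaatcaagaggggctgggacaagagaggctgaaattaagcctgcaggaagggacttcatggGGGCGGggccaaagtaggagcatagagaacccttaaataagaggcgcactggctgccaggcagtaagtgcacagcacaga
The single match was a GC box 80 to 75 bases before the start, which 30.5% of 33465 promoters in the table also hold. No letters of the other 6 motifs are in this window.

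The 4 granule protease genes were bright in both groups, and 0 of 4 passed limma, with 1 at an unadjusted p under 0.05. They encode enzymes packed with heparin in mast cell granules. Cpa3, carboxypeptidase A3, had intensities of 758.75, 560.83, 243.13, 362.4 and 550.67 in control replicates 1 to 5 and of 487.13, 505.1, 712.57 and 873.68 in CGN replicates 1 to 4. The Cpa3 groups overlapped, with CGN replicate 4 above every control and the other 3 CGN samples within the control range, and its log2 change was 0.44 ± 0.31 (95% interval -0.23 to 1.12, adjusted p = 0.370).

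Cma1, the chymase, had control intensities of 843.49, 657.05, 364.83, 368.4 and 542.53 and CGN intensities of 485.02, 677.54, 930.07 and 544.58. The Cma1 groups overlapped, with only CGN replicate 3 above every control, and with a log2 change of 0.28 ± 0.27 (95% interval -0.32 to 0.87, adjusted p = 0.542). The tryptase gene Tpsb2 had control intensities of 231.81, 181.05, 124.62, 177.23 and 171.27 and CGN intensities of 144.1, 191.51, 189.63 and 265.46. CGN replicate 4 was above every Tpsb2 control and the other 3 were within the control range. The log2 change of Tpsb2 was 0.15 ± 0.20 (95% interval -0.28 to 0.58, adjusted p = 0.667).

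The other tryptase gene, Tpsab1, had control intensities of 571.93, 494.43, 301.12, 450.36 and 547.95 and CGN intensities of 466.69, 582.32, 744.23 and 823.35. The Tpsab1 values of CGN replicates 2 to 4 lay above every control and that of replicate 1 did not. In limma its log2 change was 0.47 ± 0.21 (95% interval 0.00 to 0.93, adjusted p = 0.150). Without CGN replicate 1, Tpsab1 passed the limma test (0.62 ± 0.20, adjusted p = 0.0487). The number of the 10 genes that rose was then 2, and 1859 of all 19091 genes were higher in that fit. Without control replicate 3 the log2 change of Tpsab1 was 0.31 ± 0.17 (adjusted p = 0.258). Without CGN replicate 4 it was 0.35 ± 0.22 (adjusted p = 0.368).

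The 4 protease genes moved largely alike from animal to animal, with Cma1 apart in CGN. Control replicate 3 was the lowest control and control replicate 1 the highest for all 4, and CGN replicate 1 was the lowest CGN sample for all 4. The highest CGN sample was replicate 4 for Cpa3, Tpsb2 and Tpsab1 and replicate 3 for Cma1. In CGN replicate 4, Cma1 lay below its own CGN mean (-0.23 in log2). The highest control was 3.12 times the lowest for Cpa3, 2.31 times for Cma1, 1.86 times for Tpsb2 and 1.90 times for Tpsab1. Among the 9545 other genes at least as bright as the median gene, the likeness to Cpa3 was measured as the root-mean-square difference of log2 values centred on each gene's mean over the 9 samples. By this measure the nearest genes were, in order, RT1-T24-4 (0.20), Tpsab1 (0.22), Tpsb2 (0.31), Slc11a2 (0.32) and Mir103-1 (0.33), and Cma1 was at rank 7 (0.35). Hdc, at 1.29, was at rank 9286, which mostly follows its rise, since the measure takes in the difference between the groups. Within the groups Hdc, like the 4 protease genes, was lowest in control replicate 3 and in CGN replicate 1. The highest control for Hdc was replicate 2.

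The promoters of the protease genes are shown beside that of Hdc because Hdc is set against these genes in the next comparison. They are again the 250 bases before the start in GRCr8, of Cpa3 (chr2:104673238-104673487, minus strand), Cma1 (chr15:33390134-33390383, minus strand), Tpsb2 (chr10:14886060-14886309, plus strand) and Tpsab1 (chr10:14867303-14867552, minus strand).
Cpa3: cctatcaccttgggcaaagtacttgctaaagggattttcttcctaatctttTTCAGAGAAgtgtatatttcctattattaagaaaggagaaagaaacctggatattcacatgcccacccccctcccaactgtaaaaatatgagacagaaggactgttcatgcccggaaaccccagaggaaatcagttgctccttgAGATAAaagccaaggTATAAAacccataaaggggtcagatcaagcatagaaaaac
Cma1: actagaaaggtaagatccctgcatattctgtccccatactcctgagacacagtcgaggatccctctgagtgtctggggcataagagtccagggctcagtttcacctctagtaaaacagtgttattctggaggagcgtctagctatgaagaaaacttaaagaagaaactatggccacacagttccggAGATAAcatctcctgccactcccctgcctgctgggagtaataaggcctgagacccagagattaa
Tpsb2: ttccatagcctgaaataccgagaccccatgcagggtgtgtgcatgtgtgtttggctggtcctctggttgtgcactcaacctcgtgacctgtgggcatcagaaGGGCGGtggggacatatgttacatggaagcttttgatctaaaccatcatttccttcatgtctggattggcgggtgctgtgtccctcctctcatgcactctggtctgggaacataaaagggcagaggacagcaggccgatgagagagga
Tpsab1: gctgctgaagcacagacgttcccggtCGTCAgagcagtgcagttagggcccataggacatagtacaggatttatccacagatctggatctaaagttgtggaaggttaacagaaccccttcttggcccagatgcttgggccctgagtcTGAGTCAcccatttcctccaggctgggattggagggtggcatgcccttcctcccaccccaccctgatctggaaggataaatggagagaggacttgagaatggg
The GATA letters stand 55 to 50 bases before the start of Cpa3 and 64 to 59 bases before that of Cma1, and 10.3% of all promoters in the table hold them. Cpa3 also has TATA box letters 40 to 35 bases before the start (12.9% of promoters) and STAT letters further upstream (7.67%). Tpsab1 has AP-1 letters 103 to 97 bases before its start (6.34% of promoters) and a CRE core on the other strand (18.2%), and Tpsb2 has a GC box. Of the 8 members with a promoter in the table, 4 hold GATA letters, namely Cpa3, Cma1, Fcer1a and Hrh1, and 0 hold the NF-kB motif, which is in 6.33% of promoters. Ms4a2 and Hrh2 were not in the promoter table. A match of letters is a description of the sequence alone.

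Hdc and the granule protease genes changed unequally. In each sample the log2 value of a protease gene was subtracted from that of Hdc, so that a shift common to both drops out, and the groups were compared over 4 such pairs. The Hdc minus Cpa3 value was -3.70 to -2.96 over controls and -1.12 to -0.43 over CGN samples, a gain of Hdc over Cpa3 of 2.55 ± 0.20 (SE). Against Cma1 it ran from -3.85 to -3.25 in controls and from -1.19 to -0.44 in CGN, a gain of 2.71 ± 0.18.

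Against Tpsb2 the difference ran from -2.19 to -1.50 in controls and from 0.60 to 1.10 in CGN, a gain of 2.84 ± 0.16. Against Tpsab1 it ran from -3.57 to -2.95 and from -1.03 to -0.64, a gain of 2.52 ± 0.15. The groups did not overlap in any of the 4 pairs. The exact permutation test over samples (2-sided, n = 4 and 5) gave p = 0.0159 for each pair and 0.0159 after Benjamini-Hochberg adjustment over the 4 pairs, which is the smallest p that 126 arrangements allow. The 4 pairs share the same Hdc values, so their results are not independent of each other. The fold change of Hdc divided by that of the protease gene was 5.84 for Cpa3, 6.55 for Cma1, 7.15 for Tpsb2 and 5.74 for Tpsab1, where the protease genes themselves did not pass limma. These ratios compare fold changes, each within its own gene, since levels of different probe sets cannot be set against each other.

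**Figure D2:**
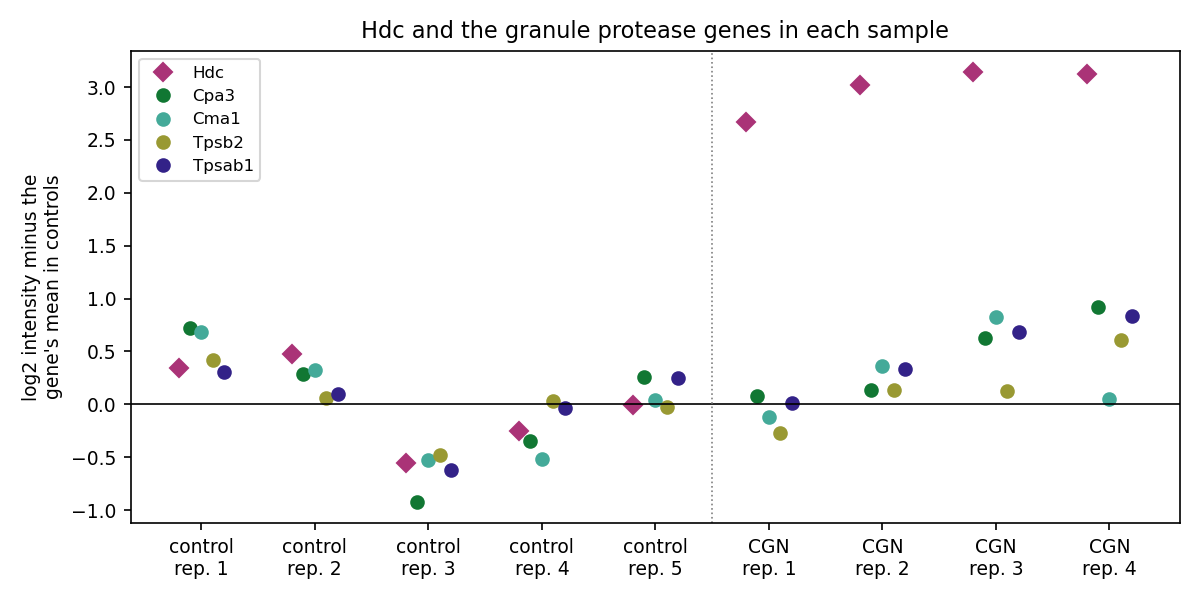
Log2 intensity of Hdc (diamonds) and of 4 granule protease genes (circles) in each sample, minus the gene's own mean over the 5 controls. In controls Hdc lies between -0.56 and 0.47, within the range of the protease genes, and in CGN it lies between 2.67 and 3.14 while the protease genes lie between -0.27 and 0.92.

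The 3 receptor genes of mast cells did not pass limma, and 0 of 3 had an unadjusted p under 0.05. Kit, the receptor for stem cell factor on which mast cells depend, had control intensities of 36.73, 45.86, 40.39, 42.35 and 41.54 and CGN intensities of 37.85, 44.72, 41.63 and 41.52 on its brightest probe set. The log2 change of Kit was 0.00 ± 0.09 (95% interval -0.20 to 0.21, adjusted p = 0.990). The other 2 probe sets of Kit, dimmer and with group means of 21.5 and 23.5 and of 8.16 and 8.40 in CGN and controls, gave log2 changes of -0.13 ± 0.19 and -0.04 ± 0.10 (adjusted p = 0.778 and 0.880 over all probe sets). Melanocytes also carry Kit, and 0 of 6 melanocyte markers passed limma, with 0 at an unadjusted p under 0.05. With the dimmest 30% of genes left out, only 2 melanocyte markers were tested, and 0 passed. For the dimmer ones it is not known whether they were above background, so their values cannot show whether melanocytes changed.

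Ms4a2, the beta chain that amplifies signals of the IgE receptor, had control intensities of 66.97, 115.57, 63.69, 79.77 and 73.37 and CGN intensities of 69.57, 43.4, 44.66 and 84.58. CGN replicates 2 and 3 were below every control and replicates 1 and 4 were within the control range. The log2 change of Ms4a2 was -0.42 ± 0.23 (95% interval -0.93 to 0.08, adjusted p = 0.237). The same 2 CGN samples had the lowest muscle values, where the mean log2 value of 15 skeletal muscle genes was 8.32, 5.53, 5.70 and 8.03 in CGN replicates 1 to 4 and 8.88 to 11.68 in controls. With that muscle value as a covariate, the log2 change of Ms4a2 was 0.01 ± 0.39 (95% interval -0.85 to 0.87, adjusted p = 0.996). That of Hdc was 2.95 ± 0.37 (adjusted p = 0.00173). The muscle values of the groups do not overlap, so this covariate cannot be told apart from CGN. The errors of both genes were larger in that fit, and a call lost in it has no reading beyond its values. A part of muscle in the Ms4a2 values was not tested.

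Fcer1a, the alpha chain that binds IgE, was dim, at 10.03, 8.33, 9.81, 8.63 and 11.07 in controls and 10.8, 12.43, 9.31 and 8.68 in CGN. Its groups overlapped (log2 change 0.10 ± 0.13, 95% interval -0.18 to 0.38, adjusted p = 0.663). Fcer1a lies below 16.8, the intensity under which the dimmest 30% of genes fell, and without detection calls it is not known whether it was above background. Of the mast cell markers taken to check the label, Cpa3, Cma1, Tpsb2 and Tpsab1 were far above that level in every sample, Ms4a2 and Kit were above it, and Fcer1a was not.

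The histamine receptor genes were also dim and did not pass limma, with 0 of 2 at an unadjusted p under 0.05. Hrh1, the H1 receptor of endothelium and sensory nerves, ranged from 10.41 to 11.15 in controls and from 9.62 to 10.7 in CGN (log2 change -0.09 ± 0.08, 95% interval -0.26 to 0.07, adjusted p = 0.460). Hrh2, the H2 receptor, ranged from 6.85 to 9.69 in controls and from 7.21 to 9.9 in CGN (0.11 ± 0.13, 95% interval -0.17 to 0.39, adjusted p = 0.630). Both lie below the intensity of 16.8 too, so that it is not known whether either receptor was above background.

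**Figure D3:**
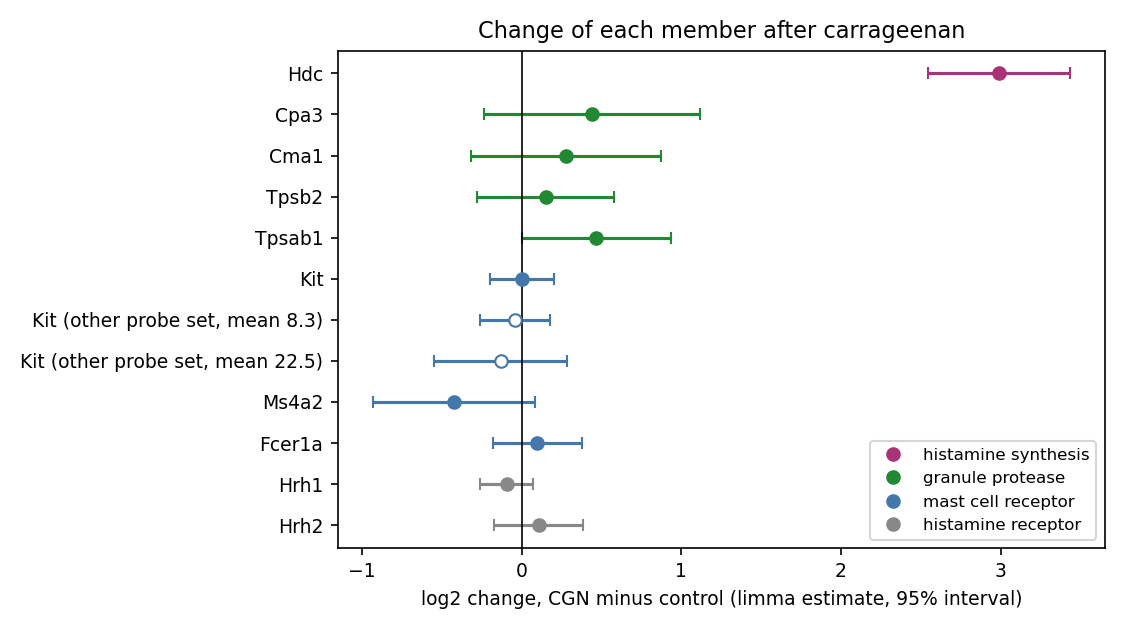
Log2 change of each gene, CGN minus control, with limma's 95% interval, coloured by role. Filled circles are main probe sets and open circles are the other 2 probe sets of Kit. The interval of Hdc, 2.54 to 3.43, lies above those of all others, and the intervals of the other genes include 0 apart from that of Tpsab1, which starts at 0.00.

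None of the 7 further histamine genes measured passed limma, and 0 had an unadjusted p under 0.05, with a median log2 change of 0.12. Of the breakdown enzymes, histamine N-methyltransferase Hnmt changed by 0.24 ± 0.12 (intensity 15.4 in controls and 18.2 in CGN), the diamine oxidase Aoc1 by 0.10 ± 0.10 and the monoamine oxidase Maob by 0.11 ± 0.22. The carriers that load histamine into vesicles and take it up into cells, Slc18a2 and Slc22a3, changed by 0.10 ± 0.18 and 0.25 ± 0.25. The H3 and H4 receptors, Hrh3 and Hrh4, changed by 0.12 ± 0.11 and 0.12 ± 0.09, Hrh4 at an intensity of 10.2 in controls. The 95% interval of Hnmt ran from -0.02 to 0.50. The other probe set of Aoc1 gave -0.10 ± 0.08 and that of Hrh3 gave -0.0033 ± 0.17 (adjusted p = 0.514 and 0.996 over all probe sets).

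Of 14 other granule and lineage genes of mast cells that were measured, 3 rose and 2 fell, beside 8.71% and 13.5% of all genes. Srgn, the proteoglycan core protein that holds histamine and proteases in granules and that many leukocytes make, had intensities of 206.32 to 317.42 in controls and 1541.07 to 3266.71 in CGN (log2 change 3.07 ± 0.21, adjusted p = 3.90e-06). Il1rl1, the receptor for interleukin 33, had 15.2 to 20.4 in controls and 51.86, 465.97, 662.12 and 245.67 in CGN replicates 1 to 4 (3.81 ± 0.58, adjusted p = 0.00109). For both genes every CGN sample was above every control, and CGN replicate 1 was far below the other CGN samples for Il1rl1. With the muscle covariate Il1rl1 did not pass (2.22 ± 0.87, adjusted p = 0.261).

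Hpgds, which makes prostaglandin D2, fell from a mean of 617 to 309 (-0.999 ± 0.196, adjusted p = 0.00442). With the muscle covariate it did not pass (-1.06 ± 0.36, adjusted p = 0.190), where the estimate had not shrunk and the error was larger. The lysosomal protein gene Cd63 (0.44 ± 0.14, adjusted p = 0.0454) and the heparin-modifying enzyme gene Ndst2 (-0.28 ± 0.09, adjusted p = 0.0490) passed narrowly. Leaving out any one of control replicates 2, 4 and 5 and CGN replicates 2 to 4 ended the call of Cd63 (adjusted p = 0.0941 to 0.128). That of Ndst2 ended without any one sample other than control replicate 4 (adjusted p = 0.0596 to 0.138). The mast cell transcription factor genes Gata2 (0.07 ± 0.13) and Mitf (0.25 ± 0.14) did not pass.

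Genes of IgE receptor signalling rose more often than they fell, with 7 of 12 higher and 1 lower. Over all genes 8.71% were higher and 13.5% lower. In which cells the 7 genes rose was not tested. Fcer1g, the gamma chain shared by the IgE receptor and the Fc receptors of macrophages and neutrophils, had intensities of 66.59 to 116.84 in controls and 277.32, 345.26, 623.03 and 597.65 in CGN replicates 1 to 4 (2.24 ± 0.26, adjusted p = 0.000195). Of the 3 chains of the IgE receptor, Fcer1g passed the test and Fcer1a and Ms4a2 did not, and whether their changes differ was not tested. The kinase gene Lyn rose by 1.55 ± 0.15, the adaptor gene Lcp2 by 1.59 ± 0.23 and the kinase gene Fyn by 0.73 ± 0.12, and each also passed on its other probe set (2.46, 1.72 and 0.84). Lat2, also among the 7, rose by 0.46 ± 0.12 on its main probe set. Its other probe set gave 0.02 ± 0.12 (adjusted p = 0.950 over all probe sets).

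The phospholipase gene Plcg1 fell by 0.91 ± 0.12 on its bright probe set, while a dim one gave 0.04 ± 0.09. The kinase genes Syk (0.18 ± 0.11) and Btk (0.10 ± 0.14) did not pass. With the muscle covariate 3 of the 12 rose and 0 fell, at a median of 0.47 in both fits. Of the genes named here that passed without it, Lcp2, Lat2 and Plcg1 did not pass there (adjusted p = 0.0853, 0.348 and 0.118). Lat2 also did not pass with the mean of its probe sets (adjusted p = 0.134).

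Of 8 mast cell growth factors and activators, 2 rose and 0 fell, beside 8.71% and 13.5% of all genes. Tslp, an epithelial cytokine that acts on mast cells and dendritic cells, went from 22.02 to 41.95 in controls to 682.94, 909.14, 621.31 and 337.46 in CGN replicates 1 to 4 (4.33 ± 0.27, adjusted p = 1.49e-06). Kitlg, the ligand of Kit, changed by -0.47 ± 0.28 (95% interval -1.08 to 0.14, adjusted p = 0.279). CGN replicates 2 and 3, at 418.15 and 383.86, were below every Kitlg control. CGN replicates 1 and 4, at 944.69 and 667.46, were within the control range of 585.94 to 1175.92. The other probe sets of Kitlg gave -0.36, -0.19 and -0.07, and none passed. Il33, the ligand of Il1rl1, changed by 0.30 ± 0.28 (adjusted p = 0.518), with overlapping groups.

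**Figure D4:**
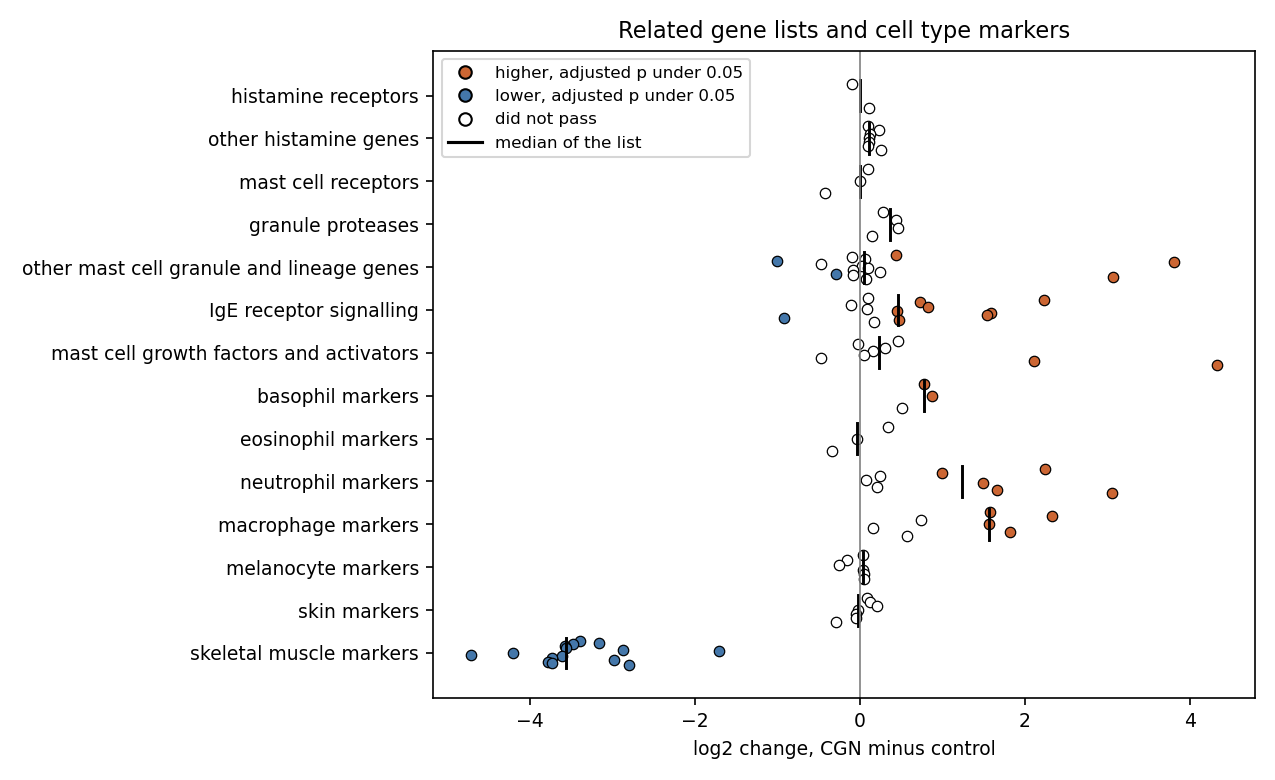
Log2 change, CGN minus control, of each measured gene in 14 lists, with 1 circle per gene and a bar at the median of a list. Orange and blue circles passed limma as higher and lower. The granule protease and histamine lists hold white circles alone near 0, while lists of neutrophil and macrophage markers hold orange circles and all 15 skeletal muscle genes are blue.

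Some markers of neutrophils, macrophages and basophils were also higher in CGN, and no test related them to Hdc. The shares over all genes were 8.71% higher and 13.5% lower. Of 8 neutrophil markers 5 rose and 0 fell, with the list's mean log2 value at 5.52 to 5.66 in controls and 6.65 to 7.08 in CGN, and Csf3r at 19.85 to 27.5 and 88.14 to 139.85. Of 7 macrophage markers 4 rose and 0 fell, with list means of 7.81 to 8.59 and 8.99 to 10.12, and Lyz2 up by 1.82 ± 0.15 (adjusted p = 1.39e-05). The log2 rise was 3.06 ± 0.31 for S100a9, 1.67 ± 0.26 for S100a8, 1.49 ± 0.12 for Itgam and 0.99 ± 0.17 for Cxcr2 among the former, and 2.33 ± 0.20 for Cd14, 1.57 ± 0.26 for Cd68 and 1.58 ± 0.33 for Adgre1 among the latter. S100a8 and S100a9 were already bright in controls, at 1405.9 to 1908.16 and 321.69 to 754.81, where Cxcr2 was at 16.14 to 25.19. Which cells held the S100a8 and S100a9 transcripts was not tested. The neutrophil markers Mpo, Elane and Fpr1 had means of 23.6, 11.5 and 8.01 in CGN and did not pass. The macrophage marker Csf1r, with means of 448 in controls and 502 in CGN, did not pass either (0.17 ± 0.21, adjusted p = 0.665). Mrc1 (0.58 ± 0.28, adjusted p = 0.175) and Cd163 (0.75 ± 0.48, adjusted p = 0.329) did not pass on their main probe sets. The other probe sets of Cd163 gave 1.55 ± 0.40 and 0.31 ± 0.11 (adjusted p = 0.0259 and 0.100 over all probe sets). The part of neutrophils, macrophages or basophils in the rise of Hdc was not tested.

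Of 3 basophil markers 2 rose, Il3ra by 0.87 ± 0.17 and Cd200r1 by 0.77 ± 0.19. List means ran from 4.02 to 4.18 in controls and from 4.64 to 4.95 in CGN. Cd200r1 was dim, with means of 7.75 in controls and 13.25 in CGN, and only CGN replicate 3, at 20.87, was above 16.8. It is therefore not known whether Cd200r1 was above background in most samples. With the dimmest 30% of genes left out, Il3ra was the 1 basophil marker tested, and it rose. Mcpt8, a protease of rodent basophils named here after its values were seen, was at 10.79 to 12.19 in controls and 23.83, 13.84, 12.07 and 17.45 in CGN replicates 1 to 4 (0.51 ± 0.17, adjusted p = 0.0557). With the muscle covariate 3 neutrophil, 2 macrophage and 0 basophil markers passed, and the neutrophil and basophil medians were 1.23 and 0.74, against 1.24 and 0.77 without it. Of 3 eosinophil markers 0 passed, with 1 at an unadjusted p under 0.05, and Prg2 and Ccr3 had means of 10.4 and 11.9 in CGN.

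The 7 skin markers were bright in both groups, from 3291 for Krt5 in CGN to 26470 for Krt10 in controls, and 0 passed limma, with 0 at an unadjusted p under 0.05. On the first principal component, which held 65.6% of the variance, CGN replicate 1 scored 20.7, CGN replicates 2 to 4 scored 53.7 to 55.1 and controls scored -41.3 to -33.0. Without CGN replicate 1 the log2 change of Hdc was 3.10 ± 0.21 (adjusted p = 3.54e-06).

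The genes most like Hdc across the 9 samples were found by the same measure of likeness, which here mostly follows the difference between the groups. The closest 5 were Stx11, a syntaxin of granule release (0.27), Tnfrsf1b, a TNF receptor (0.28), Sod2, the mitochondrial superoxide dismutase (0.28), Gch1, the first enzyme of tetrahydrobiopterin synthesis (0.29), and Rnf19b, a ubiquitin ligase (0.29). Their log2 changes ran from 2.96 for Sod2 to 3.34 for Stx11. The protease genes stood at ranks 1026 for Tpsab1, 1136 for Cpa3, 1578 for Cma1 and 2054 for Tpsb2 in that order of 9545 genes.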

How the data were processed

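RNA from skin of 9 rats, 1 array each, was compared between 4 CGN and 5 control samples. The authors deposited intensities processed with RMA, on a linear scale. RMA is named in the submitters' processing notes, with the version not given there. No detection calls, probe signals or slide data were used here. Values were taken by sample accession. Of the columns in the deposited table with names, 8 matched a sample by name and held identical values, and 1 carried a number that no CGN label has and equalled a single CGN sample. Gene symbols are those of the deposited table, with older names of Aoc1, Cxcr2 and Adgre1 found through RefSeq synonyms (GRCr8). For a gene with more than 1 probe set (5871 of 19091 genes) the one with the highest mean log2 intensity was used, and 16183 probe sets with no symbol were left out.

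Intensities were converted to log2 and fitted by group alone in R 4.3.3 with the lmFit and eBayes functions of limma 3.58.1. Its 2-sided p-values were adjusted by Benjamini and Hochberg's method over 19091 genes, with a threshold of 0.05. Every adjusted p for a gene is from this fit unless another is named. Values are log2 CGN minus control ± SE, and group means are geometric. Pairs with Hdc were compared by exact permutation in Python 3.11.15 with scipy 1.17.1. The fit was tested on simulated data. The 10 genes, the 7 related lists and the 7 marker lists (99 of 101 genes measured, Mcpt9 and Mcpt10 not) were chosen with earlier results of these data known. By the rule for names, those named from each related or marker list are its members past the test, at most 5 by smallest adjusted p, or else its 2 brightest, all 7 further histamine genes, and the 5 genes most like Hdc and Cpa3. Syk, Btk, Lat2, Gata2, Mitf, Kitlg, Il33, Mpo, Elane, Fpr1, Csf1r, Mrc1, Cd163 and Mcpt8 were added after their values were seen. Not all genes that the rule takes are described, and 1 of them is not reported here. The labels do not say whether animals were housed or processed together, and the small number of arrays limits the precision. Alternatives are given in the closing section.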

Additional observations from a re-analysis of the deposited data

How the results depend on the processing

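Hdc stayed higher and past the limma threshold under all 10 other settings (log2 change 2.95 to 3.03, adjusted p 4.32e-07 to 0.00173) and without any one sample (2.85 to 3.11). Its gain over the protease genes was 2.43 to 2.66 for Cpa3, 2.59 to 2.84 for Cma1, 2.77 to 2.95 for Tpsb2 and 2.46 to 2.62 for Tpsab1 without any one sample (exact permutation p = 0.0286 or 0.0357, the smallest these sizes allow). The number of members higher was 1 to 2 and lower 0 to 0 without any one sample, the 2 being without CGN replicate 1 through Tpsab1. Of the members that did not pass, Kit, Tpsb2 and Ms4a2 changed sign in places. Kit was at -0.01 with median centring (-0.0149), -0.06 with the mean of its probe sets (-0.0561), -0.0110 with array weights and -0.17 with the muscle covariate (-0.173), and -0.0389 to 0.0458 without any one sample. Tpsb2 was at -0.00186 to 0.292 without any one sample, the negative value being without CGN replicate 4, and Ms4a2 at 0.0105 with the muscle covariate. The cause was not tested. Over all genes 1663 were higher and 2574 lower. With the muscle covariate, which cannot be told apart from CGN, these numbers were 418 and 54. They were 1170 and 1425 with the replicate block, and 1285 to 1859 and 1736 to 3044 without any one sample. The replicate block takes same-numbered samples as pairs, but their deviations from the group means correlated at -0.28, 0.04, 0.01 and -0.12 for numbers 1 to 4, so the numbers were not taken to pair the animals. With that block Hdc was at 2.99 ± 0.24 (adjusted p = 0.00112), and control replicate 5, with no partner, added nothing. Of the related lists, granule and lineage genes gave 2 to 4 higher and 1 to 2 lower without any one sample, and 1 and 0 with the muscle covariate, and growth factors and activators 2 to 3 higher and 0 to 1 lower without any one sample. Leaving out the dimmest 30% of genes removed Fcer1a, Hrh1 and Hrh2, for which signal over background is the limit. Quantile normalization changed no call of a member.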
